A study of Caenorhabditis elegans with 72 samples.

Results

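The genes described here encode the machinery that reads messenger RNA: the translation factors and the aminoacyl-tRNA synthetases of *C. elegans*. Members were protein-coding genes whose WormBase name starts with eif-, eef-, eft-, ife-, iff- or ifg- and a number, or with 1 letter followed by ars- and a number. The rule gave 71 of the 19701 protein-coding genes in the deposited table, of which 39 are factors and 32 are synthetases. All 71 had an expression value of at least 1 FPKM in the control, so none was lost to a filter on low values. FPKM, the unit of the table, relates fragments to the length of a transcript and the mapped reads of a library, so that levels of genes of different length can be set side by side.

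RNA was sequenced from whole animals at the late L4 stage, the last larval stage, in 4 genotypes with the strain background AX204. Controls carried a mutation in *npr-1*, which encodes a neuropeptide receptor, and every other animal carried the same mutation with a second one, in *nfki-1*, *malt-1* or *ilc-17.1*, after which these double mutants are named below. In the IL-17 pathway, the ligand is ILC-17.1, MALT-1 is a paracaspase and NFKI-1 resembles IκB, and the comparison asks how loss of each alters the transcriptome. The labels list 72 samples, 18 per genotype, which is more than the biological replicates in the study's methods, where *ilc-17.1* mutants have fewer than the other genotypes. For *ilc-17.1* mutants, 3 of the 18 samples carry the number of another with a suffix. The labels do not otherwise say how samples map to replicates. The alleles are not stated in the labels.

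The authors deposited 1 pooled FPKM value per genotype in each of 7 comparisons of 2 genotypes, and no value per sample. The depth behind a value is unknown, no SD or interval can be given, and no difference below was tested against the spread between replicates. Differences are given as the log2 ratio of the 2 FPKM values. A gene was counted as higher or lower if this ratio was at least 0.25 in either direction, a fold of 1.19, with at least 1 FPKM in the base genotype. The fold and the minimum are those of the study's methods, which set the minimum in *npr-1*. The study's q-value limit and its exclusion of genes that oscillate in development were not applied, so the counts are not comparable with its own. Where 3 ratios or 3 pairs of levels follow a gene, they stand for *malt-1* first, *ilc-17.1* second and *nfki-1* last, each against *npr-1* of its own comparison. Values were scaled within each comparison. The *npr-1* values of members therefore differed between comparisons, by at most 0.021 on the log2 scale. All 3 comparisons with *npr-1* share the same controls, so a pattern seen in all of them is not independent evidence.

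As a check of the labels, *malt-1* was at 6.49 FPKM in the control and 3.99 in its own mutants, *nfki-1* at 24.1 and 8.94 in *nfki-1* mutants, and *ilc-17.1* at 0.315 and 0.157 in *ilc-17.1* mutants, the last below 1 FPKM in both. These genes did not differ only in their own mutants: *nfki-1* had a ratio of -0.41 in *malt-1* mutants. *malt-1* was higher in *ilc-17.1* mutants (0.33, from 6.58 to 8.29 FPKM). *ilc-17.1* had ratios of -0.47 in *malt-1* and -0.50 in *nfki-1* mutants, from values below the minimum of 1 FPKM. Of 10 germline markers, 7 were lower in *malt-1*, 9 in *ilc-17.1* and 7 in *nfki-1* mutants. The remaining marker in *ilc-17.1* mutants, *rec-8*, was higher (0.28). Of all protein-coding genes of at least 1 FPKM, 12.4%, 21.4% and 19% were lower in the same order. The shares higher were 17.2%, 22.3% and 24.2%, and both sets of shares apply to the marker counts below. The summed level of the 10 germline markers went from 972 to 807, from 986 to 682 and from 980 to 799 FPKM. The 6 vitellogenin (yolk) genes were higher in all 3 mutants, and their sum went from 465 to 689, from 471 to 1514 and from 470 to 1470 FPKM. Of 6 sperm markers, 2 were higher in *malt-1*, none in *ilc-17.1* and 5 in *nfki-1* mutants, with medians of 0.21, 0.14 and 0.48 and sums from 221 to 256, from 224 to 212 and from 223 to 330 FPKM. Of 5 measured muscle markers, 1, 4 and 2 were higher and 1, 0 and 1 lower, with medians of 0.05, 0.42 and 0.23. Of 6 neuronal markers, 1, 3 and 0 were higher and 0, 1 and 1 lower. None of 4 intestinal markers passed the fold, and of 5 hypodermal markers only *lin-26* reached 1 FPKM in controls. The pharyngeal muscle gene *myo-2*, the intestinal gene *ifb-2* and the cuticle collagens *dpy-7* and *dpy-13* were listed at 0 in all genotypes, although an L4 larva expresses them, so a listed 0 does not show absence. In whole animals, fewer cells of a type and less RNA per cell cannot be told apart.

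Translation begins when the ternary complex of eIF2, GTP and initiator tRNA joins the small ribosomal subunit with eIF1, eIF1A and the multi-subunit scaffold eIF3, and is brought to the mRNA cap by eIF4E and eIF4G. eIF2B recharges eIF2 with GTP and is the point at which stress kinases slow initiation. In elongation, eEF1A delivers aminoacyl-tRNA, the eEF1B subunits recharge eEF1A, eEF2 moves the ribosome by a codon, and eIF5A relieves stalls. Each synthetase couples an amino acid to its tRNA. *C. elegans* has separate nuclear genes for many cytosolic and mitochondrial synthetases, while some genes serve both compartments. Cells generally make these proteins in proportion to growth.

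Levels followed role. Elongation factors were the most abundant group, with a median of 1744 FPKM in *npr-1* (comparison with *malt-1*), and *eef-1A.1* was 14th among all 19701 protein-coding genes at 7783 FPKM. *eef-2*, which encodes eEF2, was at 2156, *eef-1G*, a subunit of eEF1B, at 2082, *iff-1*, an eIF5A, at 1581, and *eef-1B.1*, another eEF1B subunit, at 1406 FPKM. The eIF3 subunits had a median of 160 FPKM and eIF2 of 327, whereas the 5 eIF2B subunits lay between 25.0 and 41.3 FPKM. Cytosolic synthetases had a median of 124 FPKM and mitochondrial synthetases of 26.3, a ratio of 4.69. The 5 most abundant synthetases were *kars-1* (lysine) at 252, *dars-1* (aspartate) at 214, *sars-1* (serine) at 188, *pars-1* (proline) at 179 and *nars-1* (asparagine) at 178 FPKM. The lowest members were *ife-4* at 22.9 FPKM among factors and *aars-1*, a mitochondrial alanine enzyme, at 17.9 FPKM among synthetases.

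**Figure D1:**
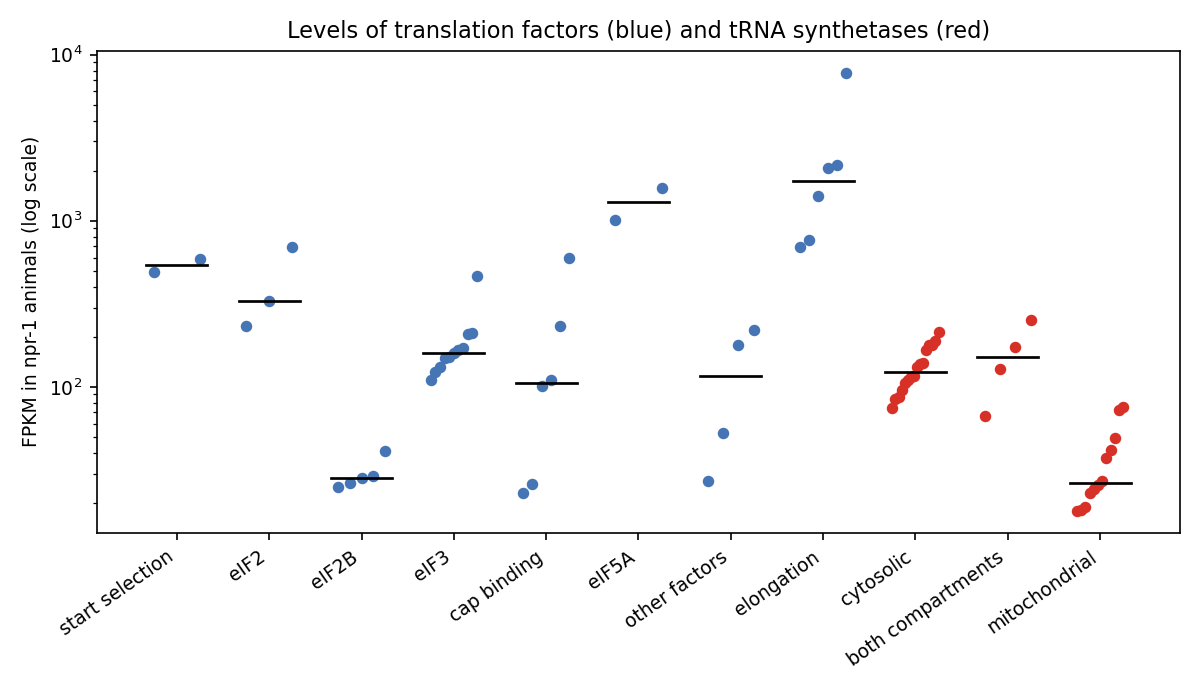
Each point is a member, placed by its role (x axis) and its FPKM in *npr-1* in the comparison with *malt-1* mutants (y axis, log scale), with factors in blue, synthetases in red and a line at the median of each group. Levels span from 17.9 FPKM for *aars-1* to 7783 FPKM for *eef-1A.1*, and the eIF2B and mitochondrial groups lie lowest.

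Most factors had negative ratios in every mutant, but a majority passed the fold only in *ilc-17.1* mutants. In *ilc-17.1* mutants 23 of 39 factors (59.0%) were lower and 1 was higher, where 21.4% of all protein-coding genes were lower and 22.3% higher, and the median log2 ratio was -0.29 against -0.00068 over all genes. In *nfki-1* mutants 13 factors (33.3%) were lower and 1 higher, beside 19% and 24.2% of all genes, with a median of -0.22 against -0.0064. In *malt-1* mutants 1 factor (2.56%) was lower and 1 higher, below the 12.4% and 17.2% of all genes, but 30 of 39 ratios were negative and the median was -0.11 against -0.0058. Factor ratios ranged from -0.25 to 0.32 in *malt-1*, from -0.91 to 0.53 in *ilc-17.1* and from -0.50 to 0.59 in *nfki-1* mutants.

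Synthetases lay closer to 0. In *ilc-17.1* mutants 12 of 32 were lower (37.5%, beside 21.4% of all genes). In *nfki-1* mutants 7 were lower (21.9%), near the 19% of all genes, and in *malt-1* mutants 1 (3.12%, beside 12.4%). None was higher in any mutant. Their medians were -0.21, -0.18 and -0.08 in the same order. In *ilc-17.1* mutants 10 factors and 12 synthetases, and in *nfki-1* mutants 15 and 8, were within 0.05 of the fold, so these counts are sensitive to where the fold is set. Summed over members, factors made up 1.82% of all protein-coding FPKM for controls, 1.71% for *ilc-17.1* mutants and 1.75% in each of the others. Synthetases made up 0.245% for controls, 0.240% in *ilc-17.1*, 0.230% in *malt-1* and 0.237% in *nfki-1* mutants. In *ilc-17.1* mutants the factor sum went from 23906 to 19626 FPKM and the synthetase sum from 3214 to 2749 FPKM. Both sums fell by a larger proportion than the shares, so the total over protein-coding genes was lower there too. Shares thus need not rank the mutants as ratios do, and the synthetase share was lowest in *malt-1* mutants, whose median ratio was -0.08. The part of the lower total in the ratios was not tested.

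Members are expressed well above the minimum, and over all genes the share past the fold depended on level. Over protein-coding genes of at least 15 FPKM, the background was 24.3% lower in *ilc-17.1*, 18.9% in *nfki-1* and 8.51% in *malt-1* mutants, so the factors' share in *ilc-17.1* and *nfki-1* mutants remained above it. The medians of that background were -0.058, -0.057 and -0.024 in the same order, further below 0 than those over all genes. Transcript length also moved with the ratios. In *ilc-17.1* mutants, genes of at least 15 FPKM with the shortest transcripts (up to 822 bases, the shortest of 4 equal bins) had a median ratio of -0.17 and those with the longest (from 2062 bases, the longest bin) of 0.14. The 2 members in the shortest bin had a median of -0.58. The 18 members in the second bin had a median of -0.33, beside -0.13 for all genes of that bin. For the 28 members in the third bin it was -0.28, beside -0.05, and for the 23 members in the longest bin -0.12. Across the 71 members, Pearson's r of log2 length and ratio was 0.48 in *ilc-17.1*, 0.33 in *nfki-1* and 0.02 in *malt-1* mutants, as a description over genes of the same libraries that are not independent. The part of length in the class medians was not tested.

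**Figure D2:**
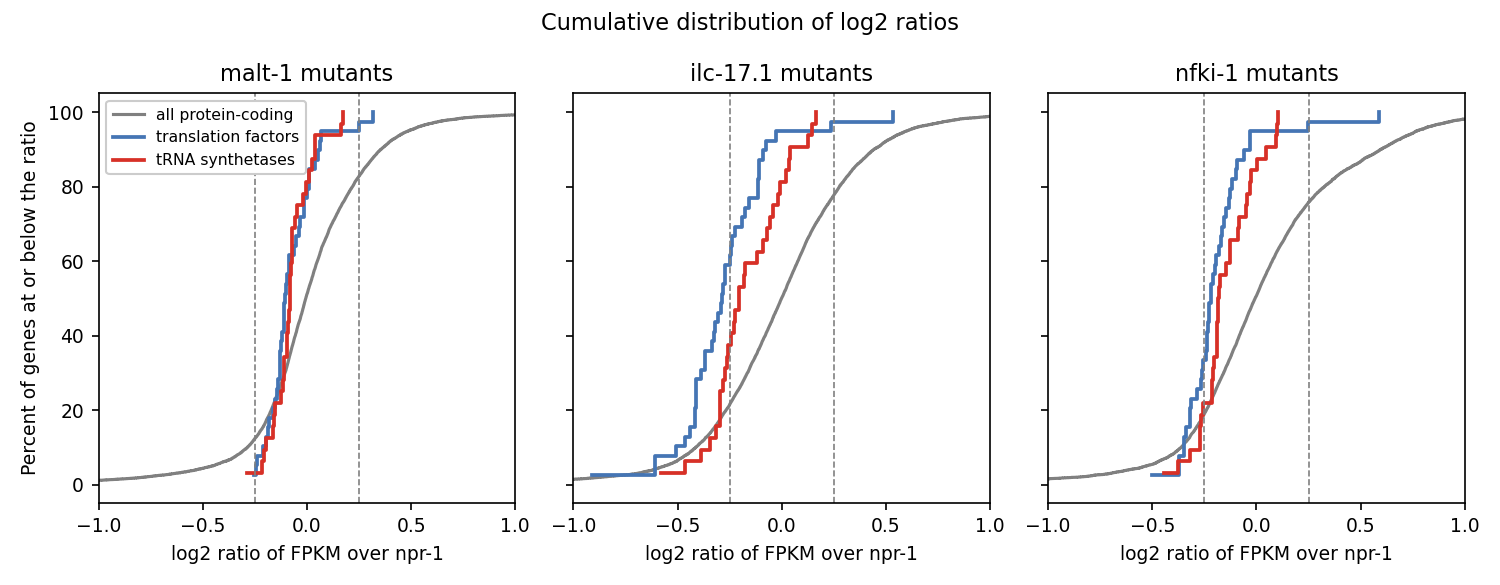
Cumulative percent of genes (y axis) at or below each log2 ratio over *npr-1* (x axis, cropped at -1 and 1) in each mutant, for all protein-coding genes with at least 1 FPKM in *npr-1* (grey), the 39 factors (blue) and the 32 synthetases (red), with dashed lines at the fold of 0.25. The factor curve lies left of the grey curve over most of its range, most clearly in *ilc-17.1* mutants, where its median is -0.29.

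Among initiation factors, the 3 eIF2 subunits were lower together. *eif-2alpha*, the subunit that stress kinases phosphorylate, was at 691 FPKM in *npr-1* and 607 in *malt-1*, at 701 and 517 in the comparison with *ilc-17.1*, and at 697 and 558 in that with *nfki-1* mutants. Its log2 ratios were -0.19, -0.44 and -0.32. *eif-2beta* had ratios of -0.11, -0.42 and -0.26, and *eif-2gamma*, the GTP-binding subunit, of -0.14, -0.46 and -0.35. All 3 thus passed the fold in *ilc-17.1* and *nfki-1* mutants and none in *malt-1* mutants. Of the 5 subunits of eIF2B, 1 passed in *ilc-17.1* (*eif-2Balpha*, a regulatory subunit, at -0.32) and 2 in *nfki-1* mutants (*eif-2Balpha* at -0.31 and *eif-2Bgamma*, of the catalytic part, at -0.26). These are 20% and 40% of the eIF2B subunits, where 21.4% and 19% of all genes were lower. The group medians were -0.12, -0.24 and -0.21.

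Of the 11 eIF3 subunits, 8 were lower in *ilc-17.1* (72.7%), 5 in *nfki-1* (45.5%) and 1 in *malt-1* mutants (9.09%), and none was higher. Over all genes the shares lower were 21.4%, 19% and 12.4% in that order. *eif-3.B*, a core subunit, passed the fold in all 3 mutants, at 167 FPKM in *npr-1* and 140 in *malt-1*, 169 and 131 with *ilc-17.1*, and 168 and 133 with *nfki-1* mutants (ratios -0.25, -0.37 and -0.34). It lies on chromosome II from 14795404 to 14798224 in the table's coordinates. *eif-3.K*, a peripheral subunit, had the lowest eIF3 ratio in *ilc-17.1* mutants (-0.51, from 213 to 150 FPKM). *eif-3.I*, a WD-repeat subunit and the most abundant of the group, stood apart with ratios of 0.07, -0.09 and -0.06. It was at 465 and 487, 472 and 444, and 469 and 450 FPKM, so its levels lay close together. *eif-1* and *eif-1.A*, which encode the start-codon factors eIF1 and eIF1A, had ratios of -0.01, -0.24 and -0.13, and of -0.11, -0.27 and -0.24.

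**Figure D3:**
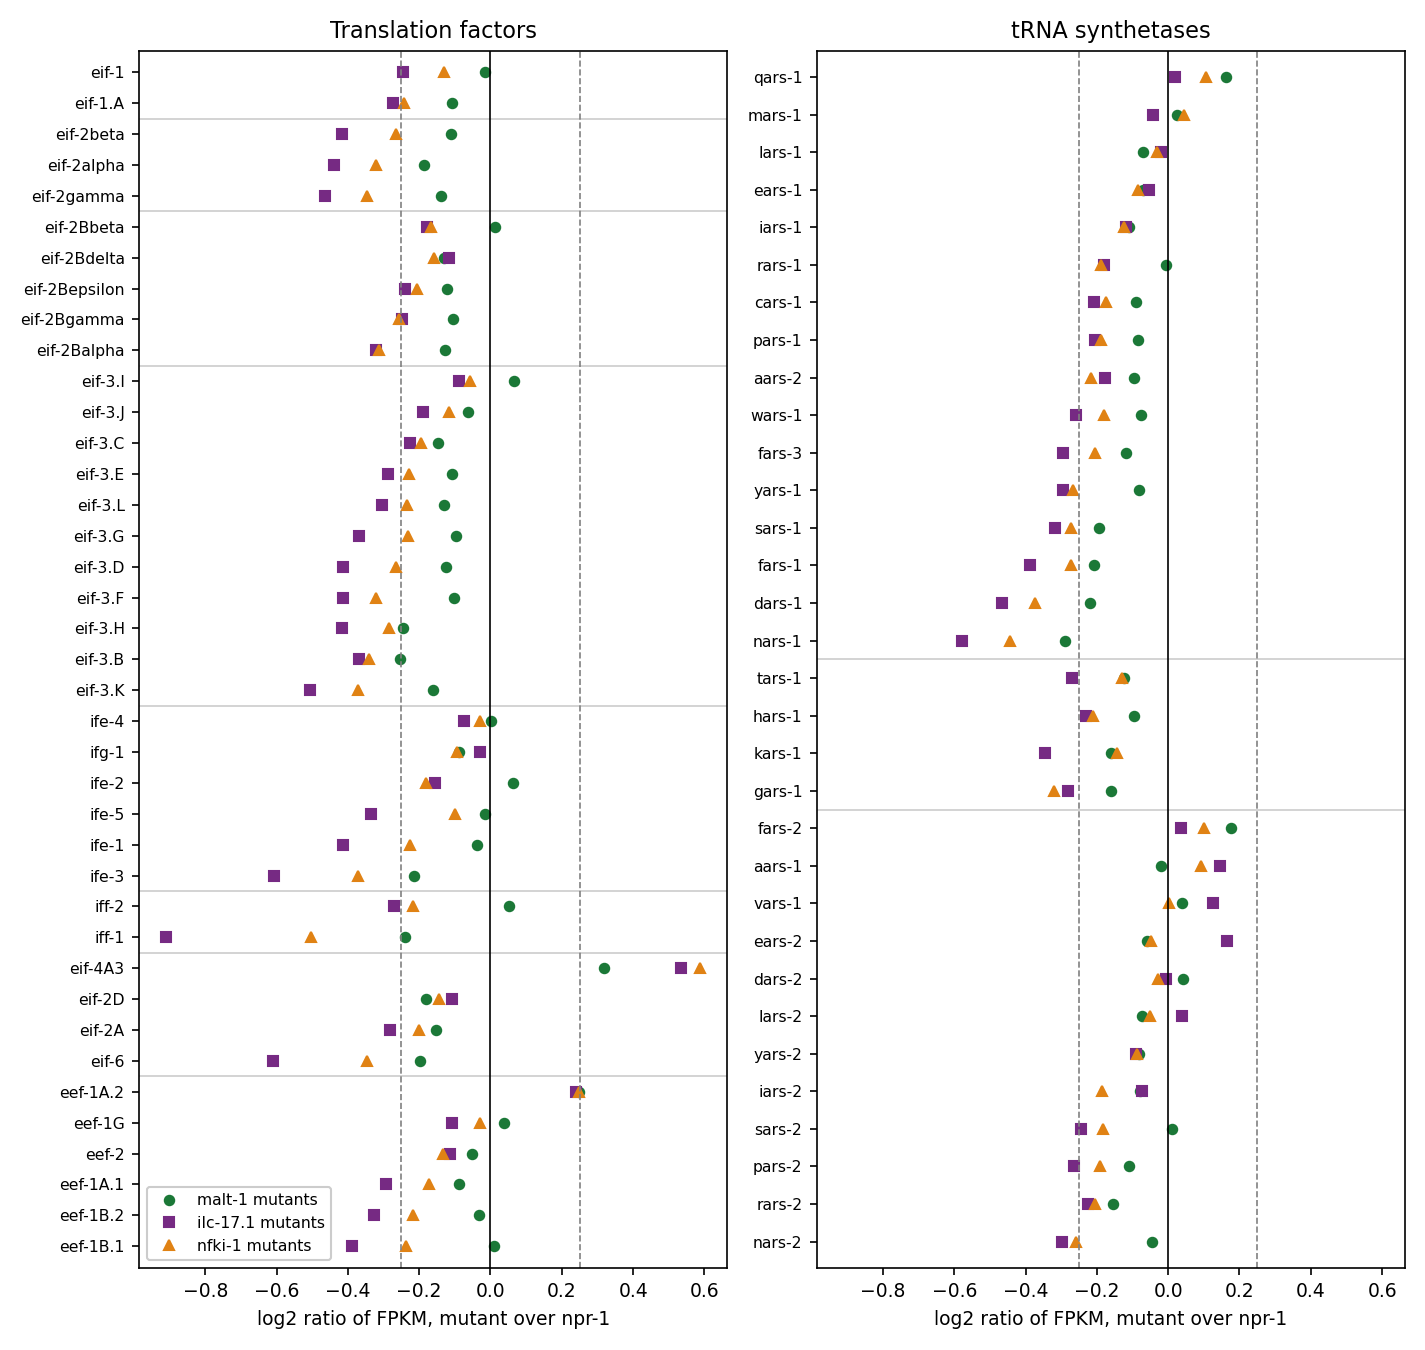
Log2 ratio of FPKM over *npr-1* (x axis) for each of the 71 members (y axis, grouped by role between grey lines) in *malt-1* (green circles), *ilc-17.1* (purple squares) and *nfki-1* mutants (orange triangles), with dashed lines at the fold of 0.25. Most squares lie left of the circles, *iff-1* is lowest at -0.91 and *eif-4A3* is alone right of the dashed line in all mutants.

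The cap-binding protein eIF4E is encoded by several genes known for different tissues. IFE-1, IFE-3 and IFE-5 act in the germline and IFE-2 and IFE-4 in the soma. *ife-3* was at 232 FPKM in *npr-1* and 200 in *malt-1*, 235 and 154 with *ilc-17.1*, and 234 and 181 with *nfki-1* mutants (ratios -0.21, -0.61 and -0.37). The table gives it a locus on chromosome V from 1663 to 7822 that it shares with another gene. *ife-1* had ratios of -0.04, -0.41 and -0.23, and *ife-5* of -0.02, -0.33 and -0.10. Of the somatic genes, *ife-2* had 0.06, -0.15 and -0.18 and *ife-4* 0.002, -0.07 and -0.03. In *ilc-17.1* mutants the germline genes thus lay below the somatic ones, whereas in *nfki-1* mutants *ife-5* lay between *ife-2* and *ife-4*, and in *malt-1* mutants all but *ife-3* lay close to 0. *ifg-1*, which encodes the scaffold eIF4G, had ratios of -0.09, -0.03 and -0.09.

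The eIF5A pair included the member with the ratio furthest from 0 in *ilc-17.1* mutants, *iff-1*. In the other mutants that member was *eif-4A3*. *iff-1*, the eIF5A needed for germ cell proliferation, lies on chromosome III from 9745864 to 9747193. It was at 1581 FPKM in *npr-1* and 1339 in *malt-1*, 1603 and 853 with *ilc-17.1*, and 1595 and 1125 with *nfki-1* mutants, which is 15.3%, 46.8% and 29.4% lower (ratios -0.24, -0.91 and -0.50). *iff-2*, the somatic copy, had ratios of 0.05, -0.27 and -0.22, from 1024 to 849 FPKM in *ilc-17.1* mutants. The level of *iff-1* over *iff-2* was accordingly 1.57 for controls and 1.00 for *ilc-17.1* mutants. Germline markers were lower in the same animals. The ratios of *pgl-1*, a P granule gene, were -0.35, -0.75 and -0.45, and those of *glh-1*, a germline helicase, were -0.31, -0.73 and -0.44. Of the 10 germline markers, 9 had negative ratios in every mutant, and the meiotic cohesin *rec-8* was the exception (0.15, 0.28 and 0.23). The part of germline RNA in the values of *iff-1* and the *ife* genes was not tested.

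**Figure D4:**
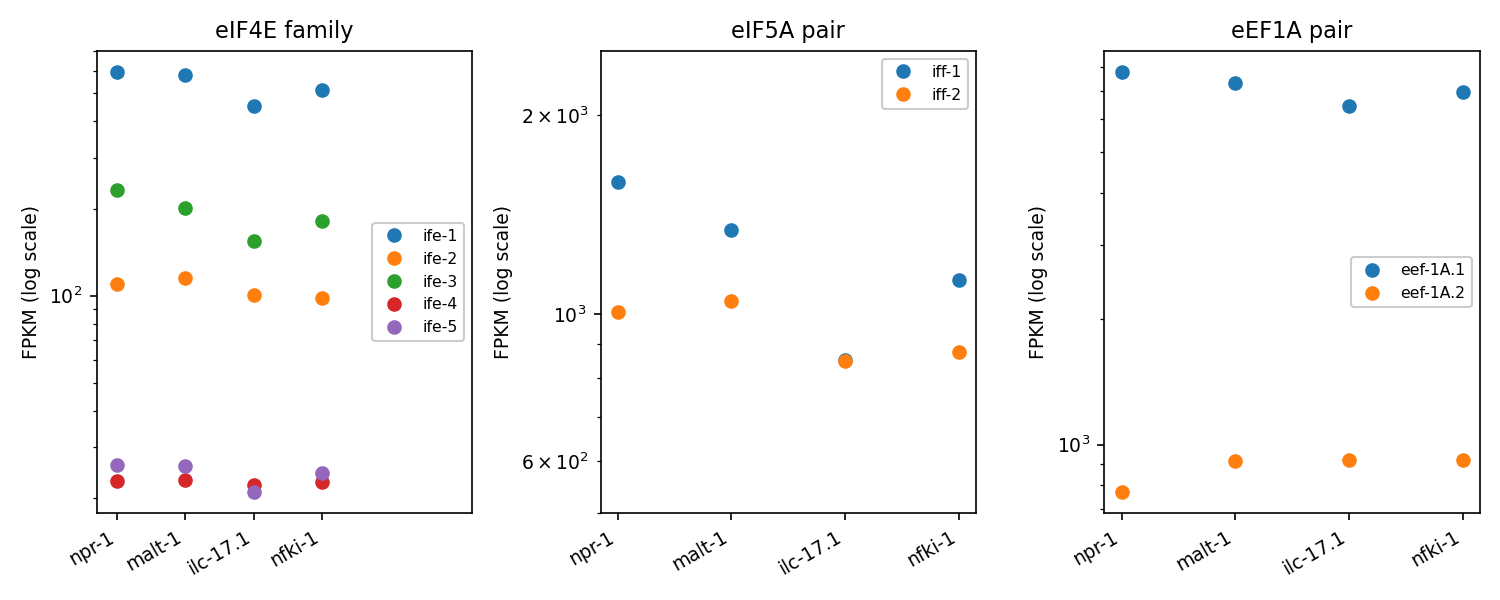
FPKM (y axis, log scale) of the *ife*, *iff* and *eef-1A* genes in each genotype (x axis), 1 point per pooled value, with the *npr-1* point taken from the comparison against *malt-1* mutants. *iff-1* meets *iff-2* in *ilc-17.1* mutants, at 853 and 849 FPKM, and *eef-1A.2* lies above its *npr-1* level of 769 FPKM in all mutants.

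*eif-6*, whose protein keeps the large ribosomal subunit from joining too early and is needed to build it, had ratios of -0.20, -0.61 and -0.35. Its FPKM went from 179 to 156, from 181 to 119 and from 180 to 142. *eif-2A* and *eif-2D*, alternative initiator tRNA factors, were at -0.15, -0.28 and -0.20, and at -0.18, -0.11 and -0.15.

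*eif-4A3*, whose protein is the helicase of the exon junction complex rather than of initiation, was the only member higher in all 3 mutants. It was at 53.0 FPKM in *npr-1* and 66.1 in *malt-1*, 53.8 and 77.9 with *ilc-17.1*, and 53.4 and 80.3 with *nfki-1* mutants (ratios 0.32, 0.53 and 0.59). The table's locus for it, on chromosome I from 629492 to 636350, holds 3 genes. *F33D11.10*, a second gene for this helicase with the same coding length of 1197 bases, differed in the opposite direction, with ratios of -0.20, -0.41 and -0.38 (77.7 FPKM in *npr-1* and 67.4 in *malt-1*, 78.8 and 59.3, 78.3 and 60.3). The sum of both had ratios of 0.03, 0.05 and 0.09, while the share of *eif-4A3* in it went from 40.6% to 49.5%, 56.8% and 57.1%. The pair is taken here as near copies from background knowledge. Reads of near copies can be divided between them in counting, so each gene's own value is uncertain. The longest annotated transcripts differ, with 2840 and 1411 bases, and since FPKM is scaled by length the sum can depend on that division too.

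Among elongation factors, *eef-1A.1* (chromosome III, 6970026 to 6972085, a locus shared with another gene) was at 7783 FPKM in *npr-1* and 7320 in *malt-1*, 7894 and 6440 with *ilc-17.1*, and 7847 and 6965 with *nfki-1* mutants (ratios -0.09, -0.29 and -0.17). *eef-1A.2* (chromosome X, 7823652 to 7825769) encodes the same factor and was higher than its control by nearly the same amount in each, with 769 and 913, 780 and 920, and 775 and 921 FPKM (ratios 0.25, 0.24 and 0.25, all just under the fold). *eef-1A.1* was 10.1 times as abundant as *eef-1A.2* in *npr-1*, and 8.01, 7 and 7.56 times in the mutants in the same order. The sum of the pair had ratios of -0.05, -0.24 and -0.13, and the sharing of reads between them was not tested.

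The eEF1B genes differed by subunit. *eef-1B.1* had ratios of 0.01, -0.39 and -0.24 and *eef-1B.2* of -0.03, -0.33 and -0.22, whereas *eef-1G* was at 0.04, -0.11 and -0.03. *eef-2* was at -0.05, -0.11 and -0.13. In all, 3 of the 6 elongation factors were lower in *ilc-17.1* mutants (50%, beside 21.4% of all genes). None was lower in the others, and none was higher.

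Among the 16 cytosolic synthetases, 7 were lower in *ilc-17.1* (43.8%), 5 in *nfki-1* (31.2%) and 1 in *malt-1* mutants (6.25%). Of all genes, 21.4%, 19% and 12.4% were lower in the same order. *nars-1*, the asparagine enzyme (chromosome I, 7088030 to 7090062), was the only synthetase below the fold in all 3, at 178 FPKM in *npr-1* and 145 in *malt-1*, 180 and 121 with *ilc-17.1*, and 179 and 132 with *nfki-1* mutants (ratios -0.29, -0.58 and -0.44). *dars-1*, for the related amino acid aspartate, followed with -0.22, -0.47 and -0.37, from 217 to 157 FPKM in *ilc-17.1* mutants. *fars-1*, a subunit of the phenylalanine enzyme, had -0.21, -0.39 and -0.27, and *fars-3*, its partner subunit, -0.12, -0.29 and -0.21. *sars-1* had -0.19, -0.32 and -0.27, and *pars-1* -0.08, -0.21 and -0.19.

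Other cytosolic enzymes were near their control level. *qars-1*, for glutamine, had ratios of 0.16, 0.02 and 0.11, and *mars-1*, for methionine, of 0.03, -0.04 and 0.05. *lars-1*, for leucine, was at -0.07, -0.02 and -0.03. The cytosolic valine enzyme is encoded by *glp-4*, which the naming rule leaves out and the table lists at 0 in all genotypes, so 19 amino acids are covered. Of the 4 genes that serve both compartments, 3 were lower in *ilc-17.1* mutants (*kars-1* at -0.34, *gars-1*, for glycine, at -0.28, and *tars-1*, for threonine, at -0.27), and *gars-1* also in *nfki-1* mutants (-0.32). These are 75% and 25% of the 4 genes, where 21.4% and 19% of all genes were lower. *kars-1* was at 252 FPKM in *npr-1* and 225 in *malt-1*, 255 and 201, and 254 and 229.

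The 12 mitochondrial synthetases lay nearest 0 of the 3 groups of synthetases, with medians of -0.05, -0.04 and -0.07 in the order of the mutants given above, beside -0.09, -0.21 and -0.19 for the cytosolic ones. In *ilc-17.1* mutants 2 were lower (*nars-2*, for asparagine, at -0.30, and *pars-2*, for proline, at -0.26) and 5 had positive ratios. *nars-2* went from 23.2 to 18.9 FPKM there and had -0.26 in *nfki-1* mutants. The share lower was thus 16.7% in *ilc-17.1* and 8.33% in *nfki-1* mutants, below the 21.4% and 19% of all genes. For 11 amino acids both a cytosolic and a mitochondrial gene were members, which gives 12 pairs since the cytosolic phenylalanine enzyme has 2 subunits. The cytosolic gene had the lower ratio in 9 pairs in *malt-1*, 10 in *ilc-17.1* and 8 in *nfki-1* mutants. The median of the cytosolic minus the mitochondrial ratio was -0.05, -0.21 and -0.13 in that order. Some pairs were nearly equal, such as *yars-1* and *yars-2* in *malt-1* mutants (both -0.08) and *pars-1* and *pars-2* in *nfki-1* mutants (both -0.19).

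Directions differed within several of these pairs. *fars-2*, the mitochondrial phenylalanine gene, had ratios of 0.17, 0.04 and 0.10, where both cytosolic subunits were negative. *aars-1* had -0.02, 0.14 and 0.09, where the cytosolic *aars-2* had -0.10, -0.18 and -0.22. *dars-2* was at 0.04, -0.01 and -0.03 beside *dars-1*. *ears-2*, for glutamate, was at 0.17 in *ilc-17.1* mutants, where *ears-1* was at -0.05. *lars-2* was at 0.04 there beside *lars-1*, and *sars-2* at 0.01 in *malt-1* mutants beside *sars-1*.

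**Figure D5:**
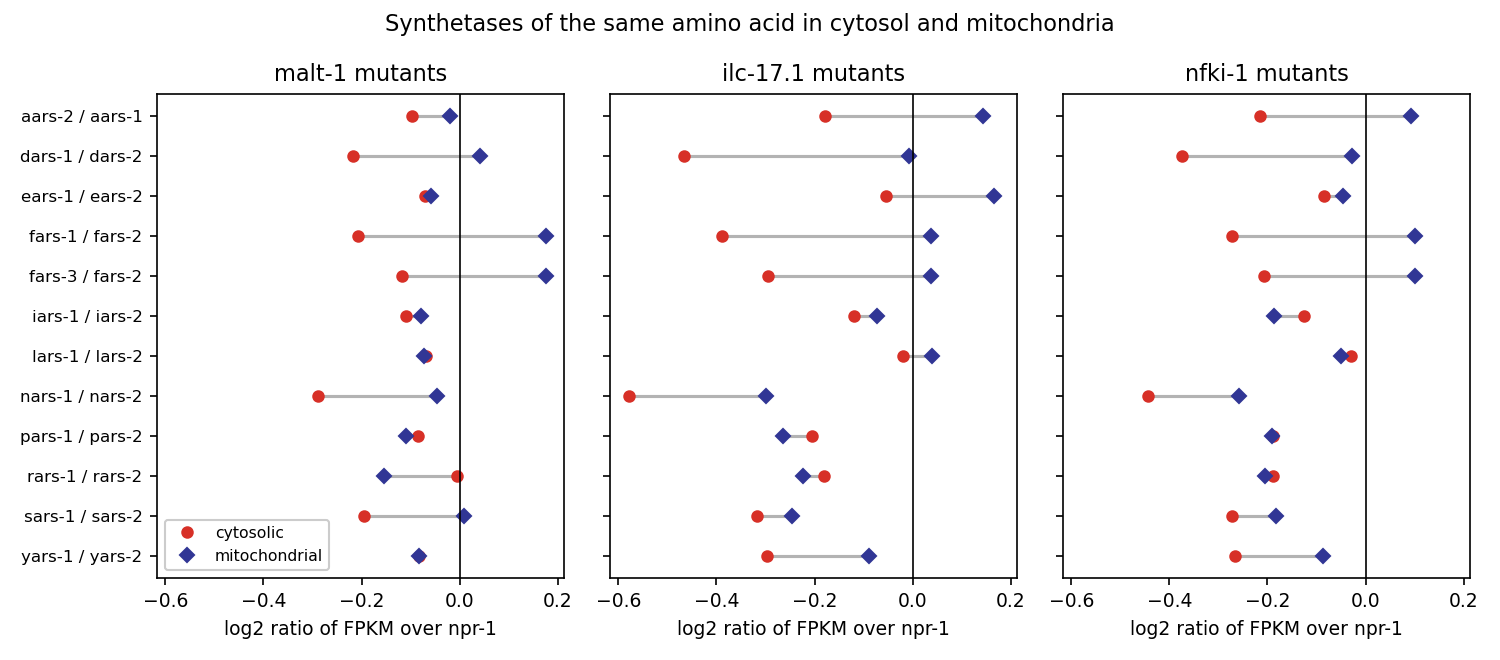
For each amino acid with a gene in both compartments (y axis), the log2 ratio over *npr-1* (x axis) of the cytosolic (red circles) and mitochondrial gene (blue diamonds), joined by a grey line, in each mutant. In *ilc-17.1* mutants the red circle is left of the diamond in 10 of 12 pairs, and the widest gaps belong to aspartate and phenylalanine.

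The mutants were also compared directly. Over *ilc-17.1* as base, *malt-1* mutants had 14 of 39 factors and 2 of 32 synthetases higher and none lower, where 18% of all genes were higher and 19.5% lower, with medians of 0.19 and 0.12. The highest was *iff-1* at 0.67 and the lowest *ears-2* at -0.23. Over *ilc-17.1*, *nfki-1* mutants had 2 factors and no synthetase higher and none lower, beside 17.8% and 13% of all genes, with medians of 0.08 and 0.03. Over *malt-1*, *nfki-1* mutants had 3 factors lower and 1 higher, and no synthetase past the fold, beside 10.9% lower and 15.6% higher, with medians of -0.13 and -0.08. The 3 genotypes therefore ranked *ilc-17.1*, *nfki-1* and *malt-1* from the lowest factor median, without an estimate of error.

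Other genes of the pathway help to place these values. Of 5 measured factors with other names, 1 (20%) was lower in *ilc-17.1* mutants, near the 21.4% of all genes. None was lower in *nfki-1* or *malt-1* mutants, beside 19% and 12.4% of all genes. The 1 lower was *erfa-1*, the release factor that reads stop codons (-0.16, -0.33 and -0.21). *inf-1*, the helicase eIF4A, was at 0.03, -0.06 and 0.12. *egl-45*, an eIF3 subunit, was at -0.02, -0.12 and -0.08. *iffb-1*, eIF5B, was at -0.14, -0.20 and -0.13, and the release factor *erfa-3* at -0.13, -0.13 and -0.16.

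Of 12 genes that control translation or growth, 5 were higher and none lower in *ilc-17.1* mutants, beside 22.3% and 21.4% of all genes, and none passed in the others. The 5 higher genes included *let-363*, the kinase TOR (0.21, 0.56 and 0.23), and *daf-15*, its partner Raptor (0.08, 0.53 and 0.20). The others were *pek-1* (0.18, 0.42 and 0.18) and *gcn-2* (0.13, 0.36 and 0.16), kinases of eIF2alpha, and *atf-4*, a transcription factor whose translation increases in stress (0.14, 0.28 and 0.18). The remaining 7 of the 12, among them the S6 kinase *rsks-1* and the poly(A)-binding gene *pab-1*, were within the fold. Over all genes, the longest transcripts as a class had a median of 0.14 in *ilc-17.1* mutants, and the part of length was not tested. In the mitochondrion, the elongation factors *tufm-1* and *tsfm-1* were lower in *ilc-17.1* (-0.31 and -0.38) and *nfki-1* mutants (-0.33 and -0.40), and *tufm-2* and *gfm-1* were not. That is 50% in each, beside 21.4% and 19% of all genes.

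Ribosomal proteins shared the direction of the factors in part. Of 80 cytosolic ribosomal protein genes with at least 1 FPKM, 69 were lower in *ilc-17.1* and 34 in *nfki-1* mutants, beside 21.4% and 19% of all genes, with medians of -0.36 and -0.24. In *malt-1* mutants none was lower, beside 12.4% of all genes, and the median was 0.001, where that of the factors was -0.11. Of 69 mitochondrial ribosomal protein genes, 37 (53.6%) were lower in *ilc-17.1*, 17 (24.6%) in *nfki-1* and 0 in *malt-1* mutants. Of all genes, 21.4%, 19% and 12.4% were lower in that order. The medians of the mitochondrial ribosomal protein genes were -0.26, -0.21 and -0.03. The part of transcript length, which moved with the ratios as given above, was not tested here either.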

How the data were processed

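PolyA-selected RNA of whole L4 animals was sequenced as stranded single-end libraries. Per the labels and the paper's methods, the authors used Trim Galore 0.4.3, TopHat2 2.1.0, Cufflinks 2.2.1 and Cuffdiff. The authors deposited 1 table with a pooled FPKM value per genotype for each of 7 comparisons. The table holds 0 columns of values per sample, so depth is unknown and no test could be fitted. Its columns with the authors' log2 fold changes, test statistics, p-values, q-values and calls were not used, and the genome build is not given in the sources used here. The label for *ilc-17.1* is spelled differently in the table and was matched as the remaining genotype.

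Names, gene types, lengths and overlaps came from the Ensembl release 115 annotation, which holds 46059 of 46624 identifiers. Table coordinates are written 1-based. Of the 71 members, 28 share their locus in the table with another gene, and 7 overlap a protein-coding gene on the same strand. Synthetase compartments were assigned from known roles, and for *pars-2* and *yars-2* from their number alone.

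Log2 ratios were computed from FPKM without a pseudocount (Python 3.11.15, pandas 2.3.3) and the counting was tested on simulated data. Named members were, per class, the 5 with the highest FPKM in *npr-1*, those past the fold in the same direction in 3 mutants, the 3 highest and 3 lowest mean ratios, paralogs, and compartment pairs differing in direction. Further members and the gene *F33D11.10* were named after their values were seen. Members and lists were chosen with earlier results of these data known. Alternatives were another fold, pseudocount, minimum, centring and membership, and the other listing of a pair. No sequence is shown.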

Additional observations from a re-analysis of the deposited data

How the results depend on the processing

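Adding 1 to each FPKM, requiring 5 FPKM or no minimum, and adding the genes of other names or *Y105E8A.20* (named *mars-2* by RefSeq) kept all class counts and medians within 1.5 times. With a fold of 0.5, lower factors numbered 0, 4 and 1 and lower synthetases 0, 1 and 0 (*malt-1* first, *ilc-17.1* second and *nfki-1* last, as below). At that fold 0 factors were higher in *malt-1* mutants. The share of all genes past a fold of 0.5 is not given, so these counts cannot be set beside it. Centring on all genes gave 0 lower factors and 2 higher in *malt-1* mutants and 2 higher in *nfki-1* mutants. The 43 members alone at their locus were a choice made after seeing the data, with fewer genes counted by construction. Among them, lower factors numbered 13 in *ilc-17.1* and 8 in *nfki-1* mutants, lower synthetases 6 and 2, and higher factors 0 in every mutant. Their factor medians were -0.27 in *ilc-17.1* and -0.22 in *nfki-1* mutants, and their synthetase medians -0.21 and -0.18. The share lower among all genes alone at their locus is not given, so these counts cannot be set beside it. The synthetase median moved to -0.052, -0.040 and -0.069 for mitochondrial genes alone, and to -0.033, 0.015 and -0.049 for these without *pars-2* and *yars-2*. Direct and indirect ratios between mutants, and the reversed listing, gave the same medians within 1.5 times. No paired analysis was possible because the table has no values per sample, and leaving out replicates could not be run for the same reason. No result of a called member reversed. Without depth or replicate spread, ratios near 0.25 cannot be separated from error.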

Other observations

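A pattern noticed after the values were seen concerns the multisynthetase complex, the assembly in which animals hold several cytosolic synthetases. Of 7 members known for it in *C. elegans* (*ears-1*, *iars-1*, *kars-1*, *lars-1*, *mars-1*, *qars-1* and *rars-1*), 1 was lower in *ilc-17.1* mutants (*kars-1* at -0.34), and the other 6 lay between -0.18 and 0.02. The other 13 genes of cytosolic function lay between -0.58 and -0.18, and 9 were lower, where 21.4% of all genes were. Medians were -0.05 and -0.28 in *ilc-17.1*, -0.08 and -0.22 in *nfki-1* and -0.07 and -0.12 in *malt-1* mutants. The complex genes have longer transcripts, with medians of 2995 and 2018 bases, and the part of length was not tested.

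The 3 members on the X chromosome (*eef-1A.2*, *ife-2* and *ife-4*) had a median ratio of 0.06, -0.07 and -0.03 in *malt-1*, then *ilc-17.1*, then *nfki-1* mutants, beside -0.10, -0.26 and -0.20 for the 68 autosomal members. X-linked genes are largely silent in the germline. Of the germline markers 9 of 10 had negative ratios in every mutant, whereas sperm markers, also made there, had medians of 0.21, 0.14 and 0.48. The part of germline RNA in this difference was not tested.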
